A study of Caenorhabditis elegans with 24 samples.

Results

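The 9 genes described here encode the main ATP-dependent chaperones of Caenorhabditis elegans: the cytosolic HSP70 gene hsp-1, the cytosolic HSP90 gene hsp-90, the HSP110 gene hsp-110, the heat-inducible HSP70 genes hsp-70 and F44E5.4, the endoplasmic reticulum (ER) HSP70 genes hsp-3 and hsp-4, the mitochondrial HSP70 gene hsp-6 and the mitochondrial chaperonin gene hsp-60. They were taken by sequence name, with no measured value in the rule, and were 9 of the 21982 genes to which the transcripts of the deposited table were summed. All 9 passed the filter on low values, at least 1 TPM (transcript abundance scaled by transcript length and library total) in at least 3 libraries, as did 14717 genes in all. F44E5.5, the neighbouring and near-identical copy of F44E5.4, is described with it but is not counted among the 9.

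Young adult animals were dissociated, and mRNA-seq libraries were made from sorted cells of 4 genotypes that all carried a GFP transgene marking the body wall muscle. Muscle cells were the GFP-positive live events, with 4 libraries each of the wild-type and daf-16(lf) genotypes and 3 each of daf-2(lf) and of the strain carrying both mutations, daf-16(lf); daf-2(lf), called the double mutant below. All cells were live events sorted without the GFP gate, with 2 libraries each for the former genotypes and 3 each for the latter. By the study's account they were a fraction of the live cells taken from each sample. Muscle and all cells libraries may thus share preparations, which the main model does not take into account. daf-16(lf) was the deletion daf-16(mu86), which removes the FOXO transcription factor of insulin/IGF-1-like signalling (IIS), and daf-2(lf) was daf-2(e1370), a temperature-sensitive allele of the insulin/IGF-1 receptor. Wild-type and daf-16(lf) animals, the high IIS state, were kept at the restrictive temperature throughout. Both strains with the daf-2 allele, the low IIS state, were raised at 15 °C and then held at the restrictive temperature for 8 h. The methods of the study place this shift at the L4 stage, and its results place it after the last larval moult. A difference between high and low IIS therefore holds the daf-2 mutation and the rearing temperature together, and they cannot be told apart. The study describes the muscle cell replicates as independent, but neither it nor the labels say whether replicates came from separate cultures, so p-values measure the spread between these samples, part of which may be technical.

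Chaperones of the HSP70 family bind unfolded stretches of other proteins in cycles driven by ATP, with J-domain proteins that start the cycle and HSP110 proteins that release the nucleotide. HSP90 acts later, on nearly folded clients such as kinases and myosin, and chaperonins such as HSP60 and the cytosolic CCT enclose a protein in a chamber while it folds. In C. elegans the heat-inducible genes are targets of HSF-1, hsp-4 is the common reporter of the ER unfolded protein response, hsp-6 and hsp-60 are those of the mitochondrial unfolded protein response, and DAF-16 works with HSF-1 on several small heat shock genes.

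Some features of the libraries bear on what follows. The 2 libraries labelled wild-type all cells listed the daf-16 transcript R13H8.1a.1 at 0, as did every library with the daf-16 deletion, whereas it was 1.16 to 1.78 TPM in wild-type muscle cells and 4.15 to 26.9 TPM in the daf-2(lf) libraries. By this transcript alone, these 2 libraries go against their label, and whether they were mislabelled was not tested. Their values are given, but they enter no comparison other than the test across all 8 groups and the shared estimate of spread. The summed level of 10 body wall muscle markers was 53733 to 104813 TPM in the high IIS muscle libraries and 67604 to 67921 TPM in daf-16(lf) all cells, but 32295 to 44711 TPM in low IIS muscle libraries and 4787 to 5700 TPM in low IIS all cells. The markers did not all move with this sum. In the limma comparisons below, loss of daf-2 in muscle cells left 5 of 10 lower and 3 higher, both with and without DAF-16. Of all tested genes, 12.9 and 8.62% were lower and 19.6 and 23.5% higher. The sum of 8 intestine markers was 3817 to 5418 TPM in low IIS all cells and 40.9 to 457 TPM in every other library. No gene of these marker lists was at 0 in all libraries of a group. The number of genes above 0 was 9200 in replicate 1 labelled wild-type all cells, 12464 in daf-2(lf) muscle replicate 1 and 14280 to 19175 in the other libraries. In such bulk samples, fewer cells of a type and less RNA per cell cannot be told apart.

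The share that each annotated transcript took of its gene also followed the IIS state. For hsp-1, transcript F26D10.3.2 was listed at 0 in all 12 high IIS libraries, and held 93.6 to 99.1% of the gene's TPM in the 12 low IIS libraries. For hsp-3, C15H9.6b.1 held 62.8 to 87.0% in the high IIS libraries and was listed at 0 in all 12 low IIS libraries. For hsp-60, Y22D7AL.5c.1 held 40.1 to 83.4% and was likewise listed at 0 in the low IIS libraries. Of 826 genes with several transcripts and at least 10 TPM in every library, 203 had a leading transcript in all high IIS libraries that differed from the leading transcript in all low IIS libraries, and 0 had such a split between muscle cells and all cells. Both cell classes hold high and low IIS libraries, so a gene that split by IIS could not also split by cell class. The 0 therefore cannot be set against the 203. TPM divides by transcript length, and these transcripts differ in length (1644 against 2115 bases for Y22D7AL.5c.1 and Y22D7AL.5a.1), so each comparison was also run with gene length held fixed, an alternative chosen after the values were seen. The genes hsp-6, hsp-70 and F44E5.4 have 1 transcript each in the table and can have no such split. Which kit each library was made with, and whether that differed between high and low IIS, is not given in the sources used here. The part of library preparation in the differences between high and low IIS was not tested.

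**Figure D1:**
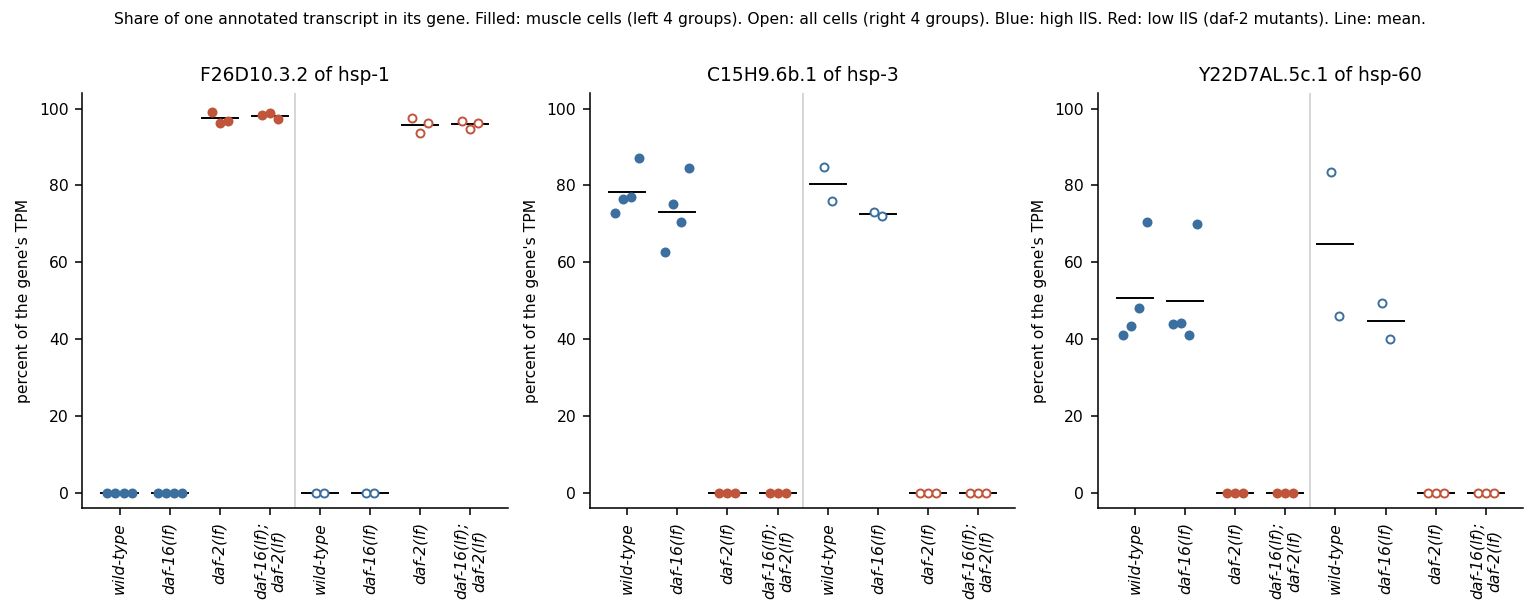
Percent of the gene's TPM held by a single annotated transcript of hsp-1, hsp-3 and hsp-60 (y axis) in each library (points), by genotype (x axis), with the group mean as a line; filled points are muscle cells, open points all cells, blue is high IIS and red low IIS. F26D10.3.2 of hsp-1 sits at 0 in the 12 high IIS libraries and at 93.6% or more in the 12 low IIS libraries, and the transcripts shown for hsp-3 and hsp-60 are at 0 in the low IIS libraries.

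Levels, in TPM and so per length, differed widely among the 9 genes. Averaged over the 24 libraries, hsp-90 was highest at 542 TPM (rank 239 of 21982 genes) and hsp-1 followed at 433 TPM (rank 275). F44E5.4 averaged 200.5, hsp-60 168 and hsp-3 154 TPM, and hsp-6 99.2 TPM. The lowest were hsp-4 at 41.9, hsp-110 at 37.4 and hsp-70 at 35.9 TPM. Every pair of neighbours in this order overlapped in their ranges over the libraries, which ran from 244 to 734 TPM for hsp-90, from 196 to 928 TPM for hsp-1 and from 0 to 687 TPM for F44E5.4. The order within a library changed with genotype. In the 12 high IIS libraries hsp-90 held 25.9 to 47.8% of the summed TPM of the 9 genes, hsp-1 held 11.7 to 23.5% and F44E5.4 12.4 to 33.5%. In the 12 low IIS libraries hsp-1 held 29.4 to 41.1% of the sum, hsp-90 23.7 to 33.8% and F44E5.4 at most 4.47%.

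**Figure D2:**
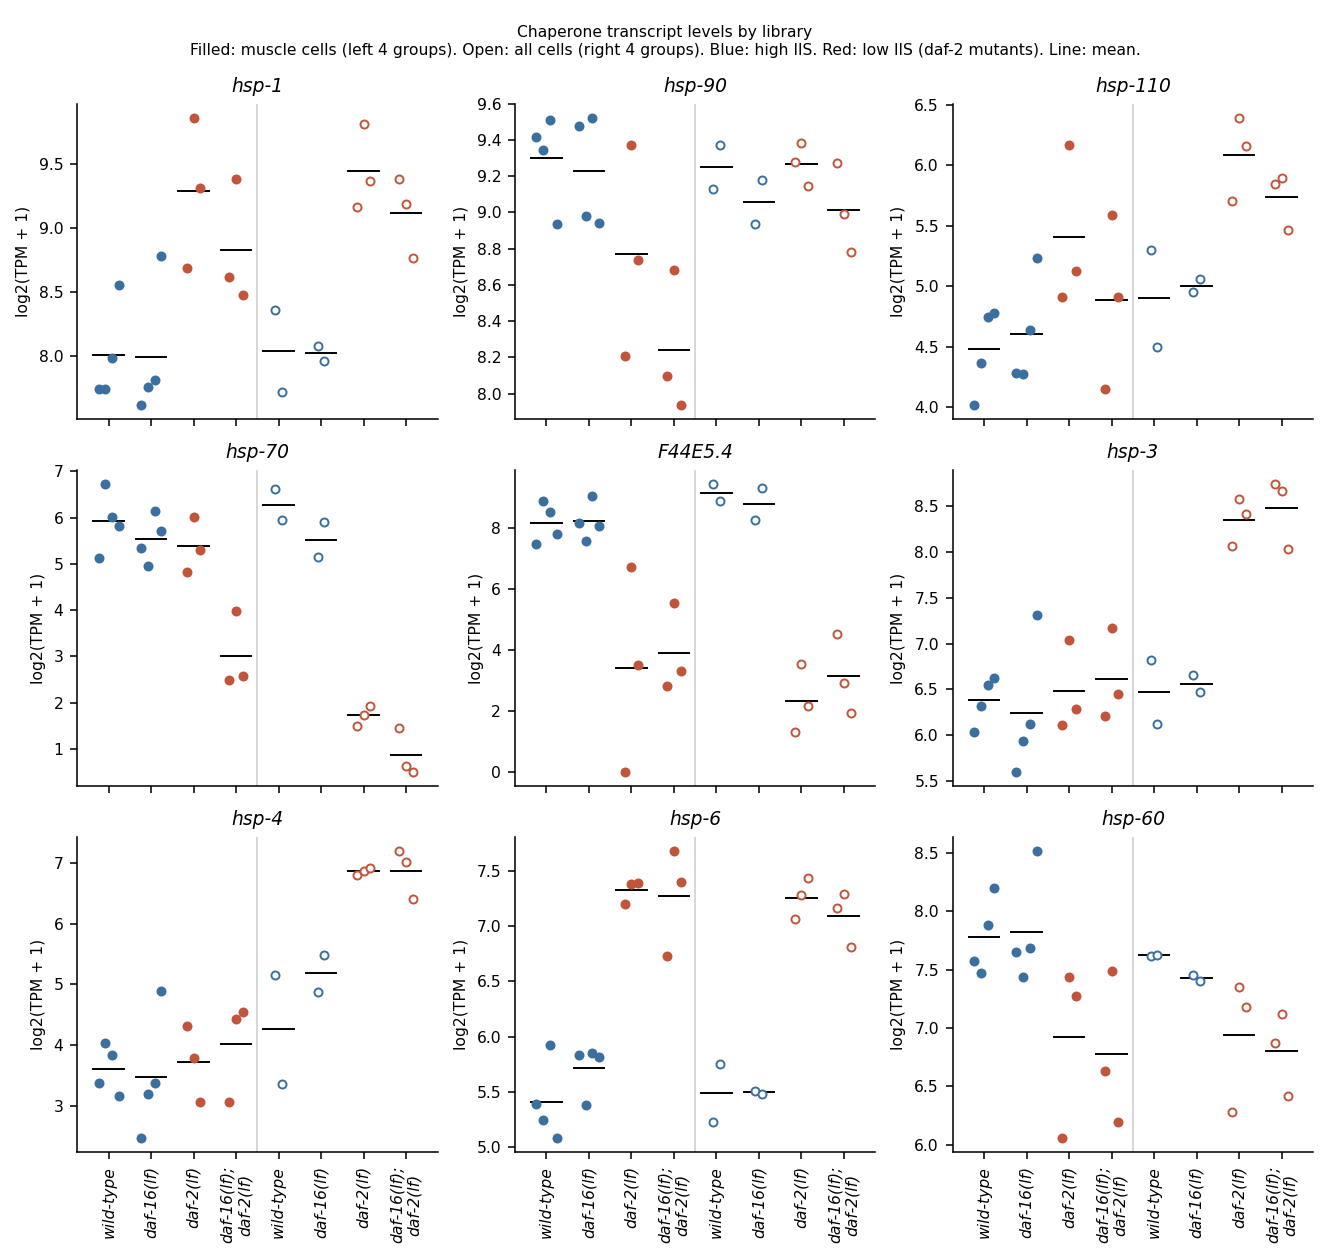
Level of each of the 9 genes as log2(TPM + 1) (y axis, with a scale of its own in each panel) in each of the 24 libraries (points), by genotype (x axis), with the group mean as a line; filled points are muscle cells, open points all cells, blue is high IIS and red low IIS. The hsp-6 level is higher in every low IIS library (105 TPM or more) than in any high IIS library (59.8 TPM or less), F44E5.4 is lower in every low IIS library, and hsp-70 is at most 2.80 TPM in low IIS all cells and 27.5 to 63.3 TPM in daf-2(lf) muscle cells.

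Differences were tested with limma on log2(TPM + 1), in a model of the 8 group means over 14717 genes, with Benjamini-Hochberg adjustment and a threshold of 0.05 on the adjusted p. All differences below are on that log2 scale, which understates the change of low genes. All 9 genes differed among the 8 groups, as did 93.4% of all tested genes, with adjusted p from 1.21e-09 for hsp-70 to 0.0266 for hsp-60. For loss of daf-2, 3 of 9 genes passed in muscle cells with DAF-16 (32.5% of all tested genes), 5 of 9 in muscle cells without DAF-16 (32.1%) and 6 of 9 in all cells without DAF-16 (56.5%). For muscle cells against all cells, 3 of 9 passed in daf-2(lf) animals (72.3% of all tested genes), 4 of 9 in double mutants (67.7%) and 1 of 9 in daf-16(lf) animals (21.1%). For the presence of DAF-16, 1 of 9 passed in low IIS muscle cells (0.612% of all tested genes), 0 of 9 in low IIS all cells (2.43%) and 0 of 9 in high IIS muscle cells, where the share of all tested genes was 0% in the same limma fit. At an unadjusted p under 0.05 the count was still 0 of 9 in each of these last comparisons, against 1162 and 105 of the 14717 genes.

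Tests of differences between differences gave fewer calls. In limma, 0 of 9 genes passed for the DAF-16 effect in muscle cells against all cells (0.904% of all tested genes) and 0 of 9 for the DAF-16 effect in low against high IIS (0.163%), with 1 gene, hsp-70, at an unadjusted p under 0.05 in each. For the effect of daf-2 loss in muscle cells against all cells, 1 of 9 passed (18.3%). The comparisons of daf-2 loss share no group with each other, but those of DAF-16 and of muscle cells reuse the same groups. Scaling mattered for comparisons that involve low IIS all cells: the median difference of all tested genes was 0.86 for daf-2 loss in all cells, -1.26 for muscle against all cells in daf-2(lf) animals and -1.09 in double mutants, and moved to 0.15, -0.44 and -0.37 with median-of-ratios scaling, which sets each library to a common median ratio over genes. Under that scaling the called genes split into 1 higher and 3 lower for daf-2 loss in all cells (4 and 2 in TPM), 4 higher and 1 lower for muscle cells in daf-2(lf) animals (1 and 2 in TPM) and 3 higher and 2 lower in double mutants (1 and 3 in TPM). For daf-2 loss with DAF-16 in muscle cells, quantile normalization, which forces one set of values on every library, gave 1 higher and 3 lower (2 and 1 in TPM). The shares of all tested genes that passed under these scalings are not given here.

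**Figure D3:**
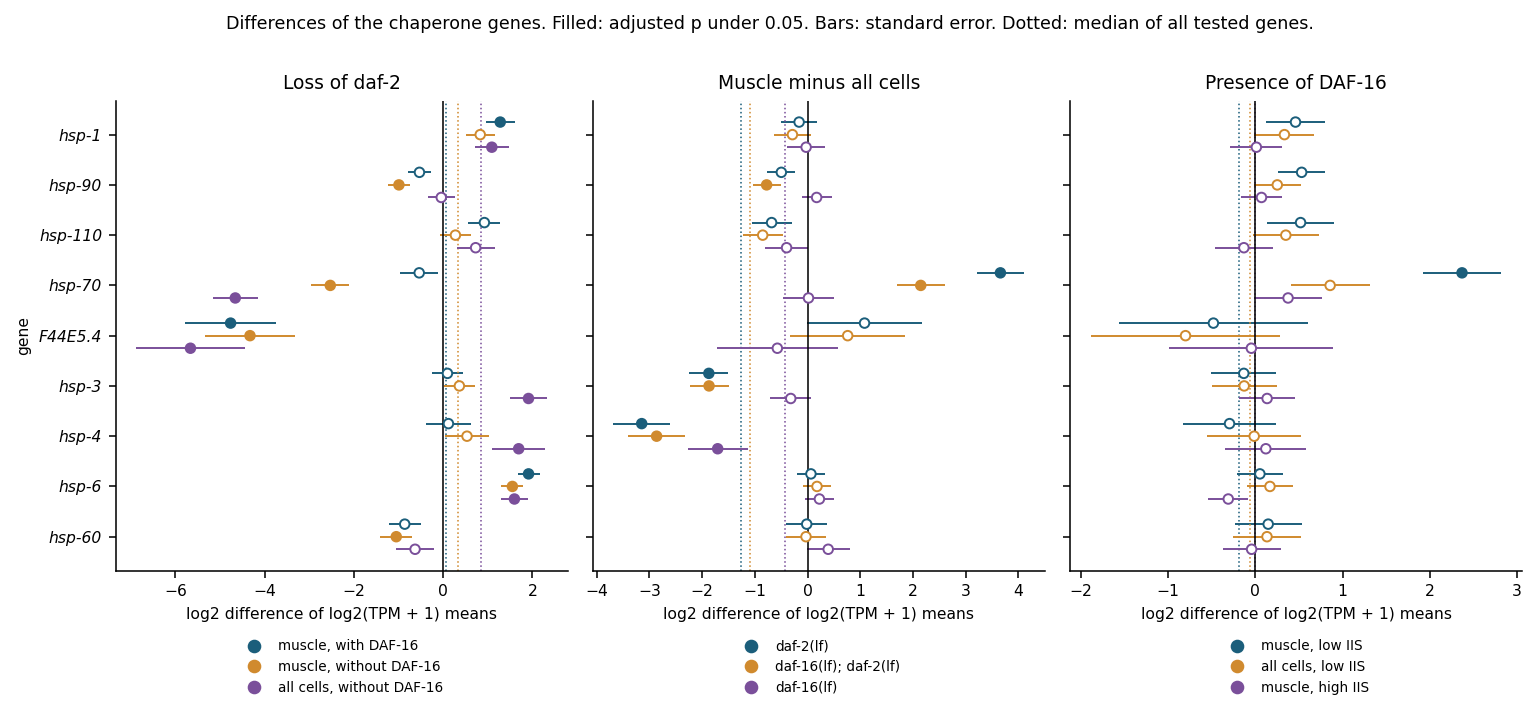
Difference of group means of log2(TPM + 1) (x axis) for each gene (y axis) in the loss of daf-2, in muscle minus all cells and in the presence of DAF-16, with bars of 1 standard error; filled points passed an adjusted p of 0.05, and dotted lines mark the median of all 14717 tested genes in each comparison. F44E5.4 lies farthest to the left in each comparison of daf-2 loss, between -4.33 and -5.66, and hsp-70 is the only gene of the 9 that passed in the presence of DAF-16, at 2.37 in low IIS muscle cells.

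Of the constitutive cytosolic genes, hsp-1 rose with loss of daf-2 in muscle cells with DAF-16 and in all cells, hsp-90 fell in muscle cells without DAF-16, and hsp-110 passed in no comparison. hsp-1 (F26D10.3, WBGene00002005, chromosome IV 17278959 to 17281330, plus strand, WBcel235) encodes the constitutive HSP70 that serves newly made proteins. Its level was 214, 213, 253 and 376 TPM in the wild-type muscle libraries, 196, 216, 225 and 440.3 in daf-16(lf), 412, 928 and 636 in daf-2(lf) and 391, 668 and 356 in double mutant muscle. In all cells it was 269.8 and 249 TPM in daf-16(lf), 574, 896 and 660.1 in daf-2(lf) and 667, 583 and 435 in double mutants, and 328 and 211 in the libraries labelled wild-type. Replicate 4 was the highest library in both high IIS muscle groups. All wild-type muscle values lay below the daf-2(lf) values, while daf-16(lf) replicate 4 lay within the range of the double mutant.

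With loss of daf-2, hsp-1 rose in muscle cells with DAF-16 by 1.28 (SE 0.32, adjusted p = 0.0038) and in all cells without DAF-16 by 1.09 (SE 0.38, adjusted p = 0.0204). In muscle cells without DAF-16 the difference was 0.83 (adjusted p = 0.0527), and it passed without daf-16(lf) muscle replicate 4, at 1.09 (adjusted p = 0.0077), or without double mutant muscle replicate 1 (adjusted p = 0.0485). It also passed with array weights, at 1.49 (adjusted p = 1.21e-07), and at the same value with a pseudocount of 0.1 (adjusted p = 0.0491), a filter at 4 TPM (0.0447) or no libraries labelled wild-type all cells (0.0454). The weights count each library by how well it follows its group, and their estimation did not converge. Beside these, the median of all tested genes was 0.054, 0.86 and 0.33. The rise in muscle cells lost its call with quantile normalization, at 0.67 (adjusted p = 0.0851). The rise in all cells lost its call with median-of-ratios scaling, at 0.15 (adjusted p = 0.802), without either daf-16(lf) all cells library (adjusted p = 0.0695 and 0.0953) and without double mutant all cells replicate 1 (0.0636).

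hsp-90 (C47E8.5, WBGene00000915, chromosome V 14684918 to 14688545, plus strand) encodes the cytosolic HSP90, which in muscle works with unc-45 on myosin, and overlaps C47E8.4 on the opposite strand. Its level was 682, 649, 729 and 489 TPM in wild-type muscle cells, 711, 503, 734 and 492 in daf-16(lf), 295, 661 and 425 in daf-2(lf) and 273, 409.8 and 244 in double mutant muscle. All 3 double mutant values lay below all 4 daf-16(lf) values, whereas daf-2(lf) replicate 2 lay within the wild-type range. All cells held 488 and 579.8 TPM in daf-16(lf), 619, 668 and 565 in daf-2(lf) and 617, 508 and 439.7 in double mutants, and 559 and 663 in the libraries labelled wild-type, with overlapping ranges. hsp-90 fell with loss of daf-2 in muscle cells without DAF-16, with a difference of -0.99 (SE 0.25, adjusted p = 0.00421), past the threshold in every alternative that was run. With DAF-16 the difference was -0.53 (adjusted p = 0.115), which passed with quantile normalization, at -0.998 (adjusted p = 0.016), with array weights, at -0.49 (adjusted p = 0.0162), and without daf-2(lf) muscle replicate 2, at -0.83 (adjusted p = 0.0188). It also passed with the replicate number as a block, at -0.64 (adjusted p = 0.0383), although same-numbered libraries did not deviate together there. In all cells it was -0.042 (adjusted p = 0.913). The muscle effect minus the all cells effect was -0.95 (adjusted p = 0.103), and -1.17 (adjusted p = 0.0476) without double mutant muscle replicate 2. With the replicate block it was -1.09 (adjusted p = 0.0381).

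hsp-110 (C30C11.4, WBGene00016250, chromosome III 8443910 to 8446909, minus strand) encodes the nucleotide exchange factor that partners HSP70. It lay at 15.2 to 26.5 TPM in wild-type, 18.4 to 36.7 in daf-16(lf), 29.1 to 71.0 in daf-2(lf) and 16.8 to 47.2 TPM in double mutant muscle libraries. All cells held 43.2 to 58.5 TPM in double mutants and 51.2 to 83.0 TPM in daf-2(lf) animals. The daf-2(lf) muscle libraries thus lay above wild-type, and the double mutant overlapped daf-16(lf). None of its 12 comparisons passed the threshold. The nearest was loss of daf-2 with DAF-16 in muscle, 0.92 (adjusted p = 0.052), which was 0.94 (adjusted p = 0.0478) with gene length held fixed and passed without wild-type muscle replicate 4 (adjusted p = 0.0492) or daf-2(lf) muscle replicate 1 (0.0335). At the same value it passed with a filter at 4 TPM (0.043) or without the libraries labelled wild-type all cells (0.0401). With the replicate block it passed at 1.08 (adjusted p = 0.0164). With array weights hsp-110 passed for loss of daf-2 in muscle cells with DAF-16, at 1.00 (adjusted p = 0.000317), and without DAF-16, at 1.01 (adjusted p = 0.000223), and in all cells, at 0.79 (adjusted p = 0.0461), as did a model of the compared groups alone in all cells, at 0.73 (adjusted p = 0.0224). In muscle against all cells of double mutants it was -0.85 (adjusted p = 0.0539), where same-numbered libraries deviated together and the fit with the replicate block gave -0.85 (adjusted p = 0.0349), and where it passed without muscle replicate 2, at -1.20 (adjusted p = 0.0134), or without the libraries labelled wild-type all cells (adjusted p = 0.0448).

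Ratios of genes inside a library do not depend on how the library as a whole was scaled. The TPM ratio of hsp-1 to hsp-90 was 0.275 to 0.896 in the 12 high IIS libraries and 0.927 to 1.63 in the 12 low IIS libraries, without overlap but with a narrow gap. With gene length held fixed the groups overlapped slightly, at 0.277 to 0.936 against 0.924 to 1.62. The highest high IIS values came from replicate 4 of the muscle groups, 0.768 in wild-type and 0.896 in daf-16(lf), and the next was 0.587. This ratio, and those of hsp-6 to hsp-60 and of hsp-70 to the F44E5 copies below, were chosen after the values were seen and were not tested.

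Most of the other cytosolic genes of the pathway rose with loss of daf-2 in muscle cells with DAF-16. Of the 16 co-chaperones and regulators of HSP90 and HSP70, 12 rose and 2 fell in muscle cells with DAF-16, 8 rose and 2 fell without DAF-16, and 10 rose and 2 fell in all cells. Of all tested genes, 19.6, 23.5 and 45.2% rose and 12.9, 8.62 and 11.3% fell in these comparisons. The median of the list was 1.39, 0.94 and 1.15 in these comparisons, beside 0.054, 0.33 and 0.86 for all tested genes. pph-5, a protein phosphatase that binds HSP90, rose by 2.61, 2.55 and 3.11. hsb-1, a small protein that binds HSF-1, rose by 2.22, 1.73 and 1.71, and unc-45, the myosin chaperone, by 2.04 and 1.55 in muscle cells. The genes that fell in all 3 comparisons were sti-1, which links HSP70 to HSP90, with -1.23, -1.50 and -1.07, and unc-23, a BAG-domain protein, with -1.39, -2.52 and -2.42. All 8 subunits of the cytosolic chaperonin CCT rose in muscle cells with DAF-16, with a median of 1.24 and the largest difference for cct-8 at 2.95. Without DAF-16, 4 of 8 rose in muscle cells, where 23.5% of all tested genes rose, and 2 of 8 in all cells, where 45.2% did. In the DAF-16 comparisons 0 of 16 and 0 of 8 passed with limma.

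Between muscle cells and all cells, few of the cytosolic differences passed. hsp-90 was lower in muscle cells of double mutants, with a difference of -0.78 (SE 0.27, adjusted p = 0.0152). This call was lost with quantile normalization, at -0.53 (adjusted p = 0.227), and with array weights, at -0.40 (adjusted p = 0.0999), turned sign under median-of-ratios scaling, at 0.34 (adjusted p = 0.514), and was lost without double mutant muscle replicate 1 or 3 or all cells replicate 1 (adjusted p = 0.0545, 0.0682 and 0.0648). In daf-2(lf) animals the hsp-90 difference was -0.50 (adjusted p = 0.099), and it passed without muscle replicate 2, at -0.80 (adjusted p = 0.0132), as did hsp-110 at -1.06 (adjusted p = 0.0225). With array weights hsp-110 had -0.72 (adjusted p = 0.0355). hsp-1 had -0.16 (adjusted p = 0.684) in daf-2(lf) animals, which turned to 1.17 (adjusted p = 0.00818) under median-of-ratios scaling. The body wall muscle markers differed between muscle cells and all cells of both low IIS strains, as given above, and their part in these values was not tested. Of the 16 co-chaperones, 1 was higher and 1 lower in muscle cells of daf-2(lf) animals, and 1 higher and 4 lower in double mutants. The higher one was unc-45, by 1.69 in daf-2(lf) and 1.62 in double mutants. The list medians were -0.34 and -0.50, beside -1.26 and -1.09 for all tested genes. Of 8 CCT subunits, 5 were higher in muscle cells of daf-2(lf) animals and 2 in double mutants, and 0 were lower. Of all tested genes, 8.25 and 8.30% were higher and 64.0 and 59.4% lower.

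The heat-inducible HSP70 genes were high in the high IIS libraries and fell with loss of daf-2, except that hsp-70 did not pass in muscle cells with DAF-16. hsp-70 (C12C8.1, WBGene00002026, chromosome I 9320325 to 9322519, minus strand) overlaps uggt-2 on the opposite strand, and reads of such genes can be told apart only where strand is kept. Its level was 34.02, 104.2, 63.4 and 55.2 TPM in wild-type muscle cells, 39.6, 30.1, 69.8 and 51.6 in daf-16(lf), 27.5, 63.3 and 38.5 in daf-2(lf) and 4.59, 14.9 and 4.93 in double mutant muscle. Of the daf-2(lf) values 2 lay within the wild-type range and 1 below it, and all 3 double mutant values lay below every other muscle library. All cells held 34.5 and 58.6 TPM in daf-16(lf), 1.83, 2.34 and 2.80 in daf-2(lf) and 1.75, 0.543 and 0.426 in double mutants, and 96.7 and 60.8 in the libraries labelled wild-type. The low IIS all cells libraries thus lay below all others.

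With DAF-16 present, hsp-70 was higher in low IIS muscle cells, the only gene of the 9 to pass there. daf-2(lf) minus double mutant muscle gave 2.37 (SE 0.45, adjusted p = 0.0117), or 43.1 ± 18.4 TPM (SD, n = 3) against 8.13 ± 5.84 TPM (SD, n = 3), with 3 of 3 daf-2(lf) libraries above all double mutant libraries, and the median of all tested genes was -0.19. In low IIS all cells the difference was 0.86 (adjusted p = 0.755) and in high IIS muscle cells 0.38 (adjusted p = 1). Neither the DAF-16 effect in muscle minus that in all cells, 1.51 (adjusted p = 0.822), nor the DAF-16 effect in low minus that in high IIS, 1.99 (adjusted p = 0.424), passed the threshold. The call in low IIS muscle cells was lost in a model of those groups alone (adjusted p = 0.465), without daf-2(lf) muscle replicate 2, at 2.06 (adjusted p = 0.0664), and without double mutant muscle replicate 3, at 2.15 (adjusted p = 0.101). Array weights added hsp-3 at -0.60 (adjusted p = 0.0349) and hsp-4 at -1.03 (adjusted p = 0.00682), both lower with DAF-16. The muscle marker sums of the compared groups were 35694 to 44711 and 32295 to 37607 TPM.

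Where DAF-16 was absent, hsp-70 fell with loss of daf-2. The difference was -2.53 (SE 0.42, adjusted p = 8.71e-05) in muscle cells and -4.66 (SE 0.50, adjusted p = 2.77e-07) in all cells, and these calls held in every alternative run. With DAF-16, in muscle cells, it was -0.54 (adjusted p = 0.374), and it passed with array weights, at -0.99 (adjusted p = 0.0191). The muscle effect minus the all cells effect was 2.13 (SE 0.66, adjusted p = 0.0266). This call was lost in a model restricted to the compared groups (adjusted p = 0.0519) and without any of 5 libraries, namely daf-16(lf) muscle replicate 2 (0.0544), double mutant muscle replicate 2 (0.0828), daf-16(lf) all cells replicate 2 (0.161) and double mutant all cells replicates 2 (0.0617) and 3 (0.0657). hsp-70 was higher in muscle cells than in all cells, by 3.66 (SE 0.45, adjusted p = 8.4e-07) in daf-2(lf) animals and by 2.15 (SE 0.45, adjusted p = 0.000415) in double mutants, both in every alternative run. In daf-16(lf) animals the difference was 0.018 (adjusted p = 0.996). The muscle marker sums of those muscle and all cells libraries overlapped, although 2 of 10 body wall muscle markers were higher in muscle cells. In the low IIS strains the marker sums did not overlap, and their part in the hsp-70 differences was not tested.

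F44E5.4 (WBGene00009691, chromosome II 11757107 to 11759311, minus strand) and F44E5.5 (WBGene00009692, 11759662 to 11761861, plus strand) lie next to each other in divergent orientation and encode near-identical HSP70 proteins, so reads can be split between them in ways the table does not show. F44E5.4 was 176, 465, 369 and 221 TPM in wild-type muscle cells, 285, 188, 528 and 268 in daf-16(lf), 0, 103 and 10.4 in daf-2(lf) and 6.02, 45.5 and 8.80 in double mutant muscle. All cells held 304 and 635 TPM in daf-16(lf), 1.48, 10.5 and 3.39 in daf-2(lf) and 22.03, 6.53 and 2.79 in double mutants, and 687 and 465.5 in the libraries labelled wild-type. Every low IIS library lay below every high IIS library, and daf-2(lf) muscle replicate 1 was listed at 0. F44E5.4 fell with loss of daf-2, with differences of -4.76 (SE 1.02, adjusted p = 0.000964) in muscle cells with DAF-16, -4.33 (SE 1.02, adjusted p = 0.00237) without DAF-16 and -5.66 (SE 1.21, adjusted p = 0.000617) in all cells. These were the lowest differences of the 9 genes in each comparison, and all 3 calls held in every alternative run. No DAF-16 comparison passed for F44E5.4, where standard errors were 0.94 to 1.09. Muscle against all cells gave 1.08 (adjusted p = 0.375) in daf-2(lf) animals, and 2.78 (adjusted p = 0.011) without muscle replicate 1, the library listed at 0.

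The copy F44E5.5 fell in the same comparisons, with -2.61 (SE 0.72, adjusted p = 0.00748), -3.71 (SE 0.72, adjusted p = 0.000407) and -5.17 (SE 0.86, adjusted p = 4.83e-05), and the sum of both copies with -3.14, -4.03 and -5.48 (adjusted p = 0.00304, 0.000341 and 5.05e-05). In muscle against all cells of daf-2(lf) animals, F44E5.5 was higher by 1.96 (SE 0.77, adjusted p = 0.028) and the sum by 1.98 (adjusted p = 0.0357). F44E5.4 took 45.4 to 51.2% of the summed TPM of the copies in the 12 high IIS libraries. Its share was 0, 37.3 and 27.8% in daf-2(lf) muscle, 36.7, 37.02 and 37.6% in double mutant muscle, 18.8, 26.5 and 23.6% in daf-2(lf) all cells and 39.4, 38.3 and 41.4% in double mutant all cells. Every low IIS library lay below the high IIS range, and the daf-2(lf) libraries lay below all double mutant libraries except for muscle replicate 2.

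The ratio of hsp-70 to the summed copies was 0.0472 to 0.118 in the high IIS libraries. It was 0.890, 0.229 and 1.03 in daf-2(lf) muscle, 0.279, 0.121 and 0.210 in double mutant muscle, 0.234, 0.0592 and 0.195 in daf-2(lf) all cells and 0.0313, 0.0319 and 0.0630 in double mutant all cells. In daf-2(lf) muscle replicates 1 and 3, hsp-70 was thus near the level of the copies, and no other library exceeded 0.279.

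**Figure D4:**
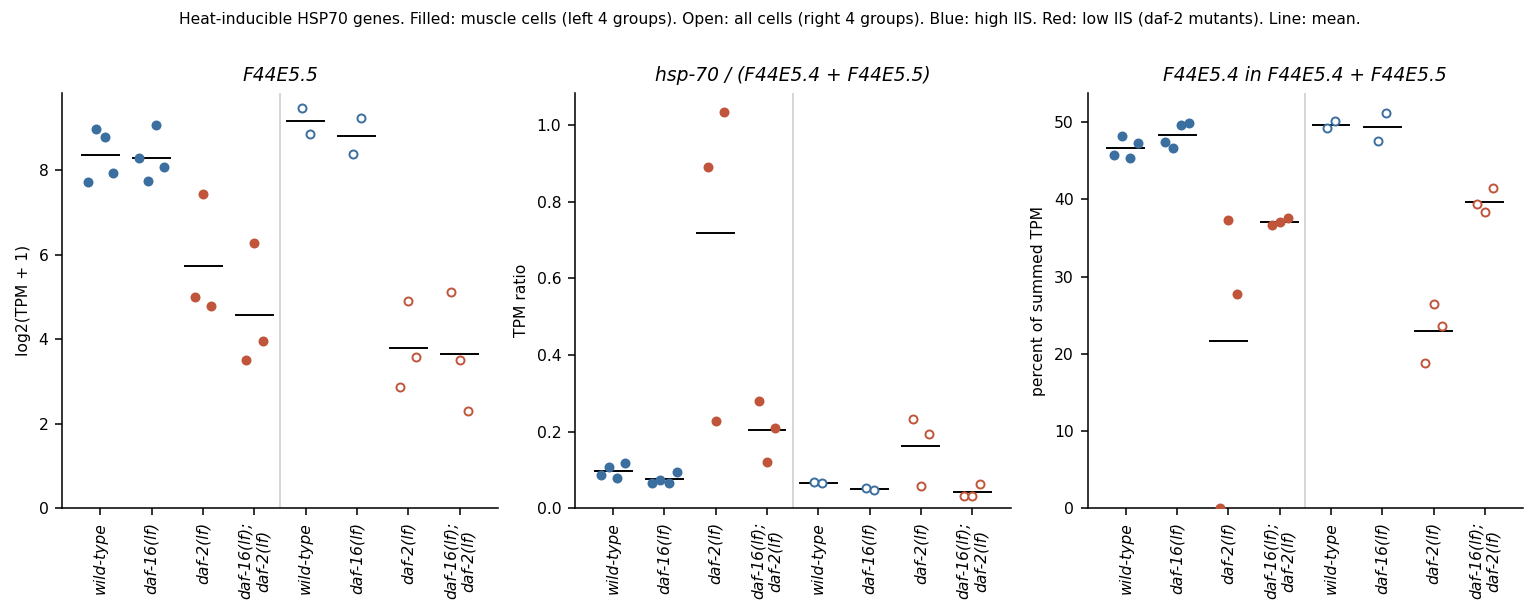
Level of F44E5.5 as log2(TPM + 1), ratio of hsp-70 TPM to the summed TPM of F44E5.4 and F44E5.5, and percent of that sum held by F44E5.4 (y axes), in each library (points) by genotype (x axis), with the group mean as a line; filled points are muscle cells, open points all cells, blue is high IIS and red low IIS. The ratio is at most 0.118 in the high IIS libraries and 0.890 and 1.03 in daf-2(lf) muscle replicates 1 and 3, and the share of F44E5.4 is 45.4 to 51.2% in the high IIS libraries and at most 41.4% in the low IIS libraries.

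The products of the small heat shock genes hold unfolded proteins without ATP. Of 6 listed genes 5 were matched and 4 tested, and these can share reads with near-identical copies. With loss of daf-2, in muscle cells with DAF-16, 2 of 4 fell (12.9% of all tested genes), hsp-16.41 with a difference of -3.89 and hsp-16.48 with -2.75, and the list median was -2.09. Without DAF-16, 4 of 4 fell in muscle cells (8.62%) and 4 of 4 in all cells (11.3%), where hsp-16.48 had -6.81 and hsp-16.41 -5.87. All 4 were higher in muscle cells than in all cells of both low IIS strains (as were 8.25 and 8.30% of all tested genes), with a list median of 3.61 in daf-2(lf) animals and 2.44 in double mutants. In the DAF-16 comparisons 0 of 4 passed with limma.

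For the ER genes, no comparison within muscle cells passed, and the low IIS all cells stood above all other libraries. hsp-3 and hsp-4 encode BiP, the HSP70 of the ER lumen, with hsp-3 (C15H9.6, WBGene00002007, chromosome X 6089028 to 6092124, minus strand) mostly constitutive and hsp-4 (F43E2.8, WBGene00002008, chromosome II 7350112 to 7352645, minus strand) induced by unfolded protein. hsp-3 was 64.5, 79.1, 92.5 and 97.8 TPM in wild-type muscle cells, 47.7, 60.3, 68.8 and 158 in daf-16(lf), 68.1, 131 and 76.9 in daf-2(lf) and 73.0, 143 and 86.3 in double mutant muscle. All cells held 100.2 and 87.6 TPM in daf-16(lf), 267, 381 and 339 in daf-2(lf) and 426, 405 and 261 in double mutants, and 112 and 69.0 in the libraries labelled wild-type. The 4 muscle groups overlapped, and the 6 low IIS all cells libraries lay above every other library.

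hsp-4 lay below hsp-3 in every library. It was 9.34, 15.4, 13.3 and 7.87 TPM in wild-type muscle cells, 4.52, 8.15, 9.30 and 28.5 in daf-16(lf), 18.9, 12.7 and 7.33 in daf-2(lf) and 7.32, 20.5 and 22.4 in double mutant muscle. In all cells it was 28.2 and 43.9 TPM in daf-16(lf), 110.2, 116 and 120.0 in daf-2(lf) and 146, 129 and 83.3 in double mutants, and 34.7 and 9.23 in the libraries labelled wild-type. The low IIS all cells libraries again lay above all others, at 83.3 TPM or more against at most 43.9 TPM elsewhere.

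With loss of daf-2 in muscle cells, hsp-3 had 0.10 (adjusted p = 0.883) with and 0.36 (adjusted p = 0.442) without DAF-16, and hsp-4 had 0.12 (adjusted p = 0.905) and 0.53 (adjusted p = 0.434). With array weights the values without DAF-16 were 1.06 (adjusted p = 2.84e-05) and 1.16 (adjusted p = 0.000181), and that of hsp-4 with DAF-16 turned to -0.56 (adjusted p = 0.0498). In all cells without DAF-16, hsp-3 rose by 1.91 (SE 0.41, adjusted p = 0.000673) and hsp-4 by 1.69 (SE 0.60, adjusted p = 0.0211), against a median of 0.86 over all tested genes. The call for hsp-3 held in every alternative run. That for hsp-4 was lost with median-of-ratios scaling, at 0.76 (adjusted p = 0.165), and without daf-16(lf) all cells replicate 1 (adjusted p = 0.153) or double mutant all cells replicate 1 (0.0592) or 2 (0.052). The muscle effect minus the all cells effect did not pass for hsp-4, -1.16 (adjusted p = 0.362), or for hsp-3, -1.55 (adjusted p = 0.0507). For hsp-3 it passed with quantile normalization, at -1.71 (adjusted p = 0.0116), with array weights, at -0.93 (adjusted p = 0.0445), without the libraries labelled wild-type all cells (adjusted p = 0.0425), and without daf-16(lf) muscle replicate 1 or 2 (adjusted p = 0.0222 and 0.0499), double mutant muscle replicate 2 (0.0268) or double mutant all cells replicate 3 (0.0367). Across the same all cells groups, the intestine markers summed to 149.6 to 196 TPM in daf-16(lf) and 4144 to 5418 TPM in double mutants and the muscle markers to 67604 to 67921 and 4787 to 5603 TPM. In that comparison 8 of 8 intestine, 5 of 6 hypodermis, 5 of 6 germline and 5 of 8 neuron markers were higher in double mutants, with list medians of 4.73, 4.18, 2.31 and 1.49, and 6 of 10 muscle markers were lower, with -1.96. The remaining germline marker was lower. Of 4 pharyngeal muscle markers 0 were higher and 1 was lower, and of 3 coelomocyte markers 0 passed. Of all tested genes, 45.2% were higher and 11.3% lower. The sums of the hypodermis markers overlapped (1977 to 2332 against 1361 to 4088 TPM), as did those of the germline markers (231 to 363 against 244 to 290.2 TPM), while those of the neuron markers did not (223 to 328 against 383 to 441 TPM). The part of these cell types in the ER results was not tested.

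Muscle cells held less of both BiP genes than all cells in the low IIS strains. In daf-2(lf) animals, the difference was -1.87 (SE 0.37, adjusted p = 0.000182) for hsp-3 and -3.14 (SE 0.54, adjusted p = 3.72e-05) for hsp-4, and in double mutants -1.87 (SE 0.37, adjusted p = 0.000245) and -2.86 (SE 0.54, adjusted p = 0.000135). Beside these, the median of all tested genes was -1.26 and -1.09 in the respective strains, and 64.0 and 59.4% of all tested genes were lower. For hsp-3 in daf-2(lf) animals the call was lost under median-of-ratios scaling, at -0.55 (adjusted p = 0.126), whereas hsp-4 passed in every alternative run in both strains. In daf-16(lf) animals hsp-4 was lower in muscle cells, with -1.70 (SE 0.57, adjusted p = 0.0366), and hsp-3 had -0.32 (adjusted p = 0.677). The muscle marker sums overlapped there, but 2 of 10 body wall muscle markers were higher in muscle cells. Lower were 3 of 4 pharyngeal muscle, 2 of 6 germline and 1 of 6 hypodermis markers, and 0 of 8 intestine and 0 of 8 neuron markers. Of 14717 tested genes, 13 were higher and 3093 lower. The part of these cell types in the hsp-4 difference was not tested. That hsp-4 call rests on 4 against 2 libraries. It was lost without a filter on low values (adjusted p = 0.0511), with quantile normalization (0.0739) or median-of-ratios scaling (0.0588), in a model restricted to the compared groups (0.129), and without daf-16(lf) muscle replicates 1, 2 or 3 (0.118, 0.0802 and 0.0689) or all cells replicates 1 or 2 (0.077 and 0.341). The share of hsp-4 in the summed TPM of the BiP genes was 7.45 to 21.7% in the 14 muscle libraries, 29.2, 23.3 and 26.1% in daf-2(lf) and 25.5, 24.2 and 24.2% in double mutant all cells, above every muscle library and up to 33.4% in daf-16(lf) all cells, and 23.7 and 11.8% in the libraries labelled wild-type all cells.

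Of 16 other ER chaperones and genes of the ER unfolded protein response, 10 rose and 2 fell with loss of daf-2 in all cells, while in muscle cells 3 rose and 4 fell both with and without DAF-16. Of all tested genes, 45.2% rose and 11.3% fell in all cells, and 19.6 and 23.5% rose and 12.9 and 8.62% fell in muscle cells with and without DAF-16. In muscle cells with DAF-16, the protein disulfide isomerase genes pdi-6 and pdi-2 fell, with -2.99 and -2.82, as did the ER HSP90 gene enpl-1 with -2.23 and xbp-1, the transcription factor of this response, with -1.13. The J-domain gene dnj-20 rose by 3.19. In all cells the calreticulin gene crt-1 rose by 2.18 and xbp-1 fell, with -1.76. In muscle against all cells, 13 of 16 were lower in muscle cells of daf-2(lf) animals, where 64.0% of all tested genes were, and 13 of 16 in double mutants, where 59.4% were, and 1 was higher in each, dnj-20. The list medians were -1.43 and -1.55 beside -1.26 and -1.09 for all tested genes. In the DAF-16 comparisons 0 of 16 passed with limma.

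Of the mitochondrial genes, hsp-6 rose with loss of daf-2 in muscle cells and in all cells, and hsp-60 fell in muscle cells without DAF-16. hsp-6 (C37H5.8, WBGene00002010, chromosome V 4824124 to 4826760, minus strand) encodes the matrix HSP70 that also pulls proteins in from the cytosol, and hsp-60 (Y22D7AL.5, WBGene00002025, chromosome III 1619742 to 1625803, plus strand) the matrix chaperonin. hsp-6 was 40.9, 36.9, 59.8 and 32.8 TPM in wild-type muscle cells, 55.9, 40.6, 56.6 and 55.4 in daf-16(lf), 146, 166 and 166 in daf-2(lf) and 105, 204 and 168 in double mutant muscle. In all cells it was 44.5 and 43.6 TPM in daf-16(lf), 133, 155 and 172 in daf-2(lf) and 143, 156 and 111 in double mutants, and 36.4 and 52.9 in the libraries labelled wild-type. The 12 high IIS libraries lay at 59.8 TPM or less and the 12 low IIS libraries at 105 TPM or more, in muscle and all cells alike. With loss of daf-2, hsp-6 rose by 1.91 (SE 0.25, adjusted p = 3.57e-06) in muscle cells with DAF-16, by 1.55 (SE 0.25, adjusted p = 4.81e-05) without DAF-16 and by 1.60 (SE 0.29, adjusted p = 0.00014) in all cells. The muscle calls held in every alternative run, and that in all cells was lost with median-of-ratios scaling, at 0.66 (adjusted p = 0.145). No other comparison passed for hsp-6. Muscle against all cells gave 0.064, 0.18 and 0.22 in daf-2(lf), double mutant and daf-16(lf) animals, and passed in the low IIS strains with median-of-ratios scaling, at 1.38 (adjusted p = 0.00094) and 1.28 (adjusted p = 0.00226).

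hsp-60 was 189.9, 176, 234.9 and 293 TPM in wild-type muscle cells, 200.2, 172, 205 and 365 in daf-16(lf), 65.6, 172 and 153 in daf-2(lf) and 98.0, 179 and 72.4 in double mutant muscle. In all cells it was 175 and 169 TPM in daf-16(lf), 76.7, 163 and 144 in daf-2(lf) and 116, 138 and 84.3 in double mutants, and 195 and 197 in the libraries labelled wild-type. The 3 daf-2(lf) muscle values lay below all 4 wild-type values, and double mutant replicate 2 lay within the daf-16(lf) range. hsp-60 fell with loss of daf-2 in muscle cells without DAF-16, with -1.05 (SE 0.36, adjusted p = 0.0298). The call was lost with gene length held fixed, at -0.79 (adjusted p = 0.085), with array weights, at -0.25 (adjusted p = 0.291), in a model restricted to the compared groups (adjusted p = 0.0854), and without daf-16(lf) muscle replicate 4 (0.086) or double mutant muscle replicate 1 (0.0658) or 3 (0.189). With DAF-16 the difference was -0.86 (adjusted p = 0.0736), and it passed with quantile normalization, at -1.23 (adjusted p = 0.00745), with median-of-ratios scaling, at -1.15 (adjusted p = 0.0251), and without daf-2(lf) muscle replicate 2, at -1.12 (adjusted p = 0.0449). In all cells it was -0.63 (adjusted p = 0.214), and -1.56 (adjusted p = 0.012) with median-of-ratios scaling. Muscle against all cells gave -0.016 (adjusted p = 0.973) in daf-2(lf) animals and -0.029 (adjusted p = 0.951) in double mutants, which turned to 1.30 (adjusted p = 0.0124) and 1.07 (adjusted p = 0.0402) under median-of-ratios scaling.

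The TPM ratio of hsp-6 to hsp-60 differed between the IIS states without overlap. It was 0.112 to 0.279 in the 12 high IIS libraries and 0.952 to 2.32 in the 12 low IIS libraries. Muscle libraries had 0.215, 0.209, 0.255 and 0.112 in wild-type, 0.279, 0.236, 0.276 and 0.152 in daf-16(lf), 2.23, 0.964 and 1.08 in daf-2(lf) and 1.07, 1.14 and 2.32 in double mutants, and the low IIS groups overlapped. With gene length held fixed the ranges were 0.117 to 0.266 and 0.804 to 1.93, still without overlap.

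**Figure D5:**
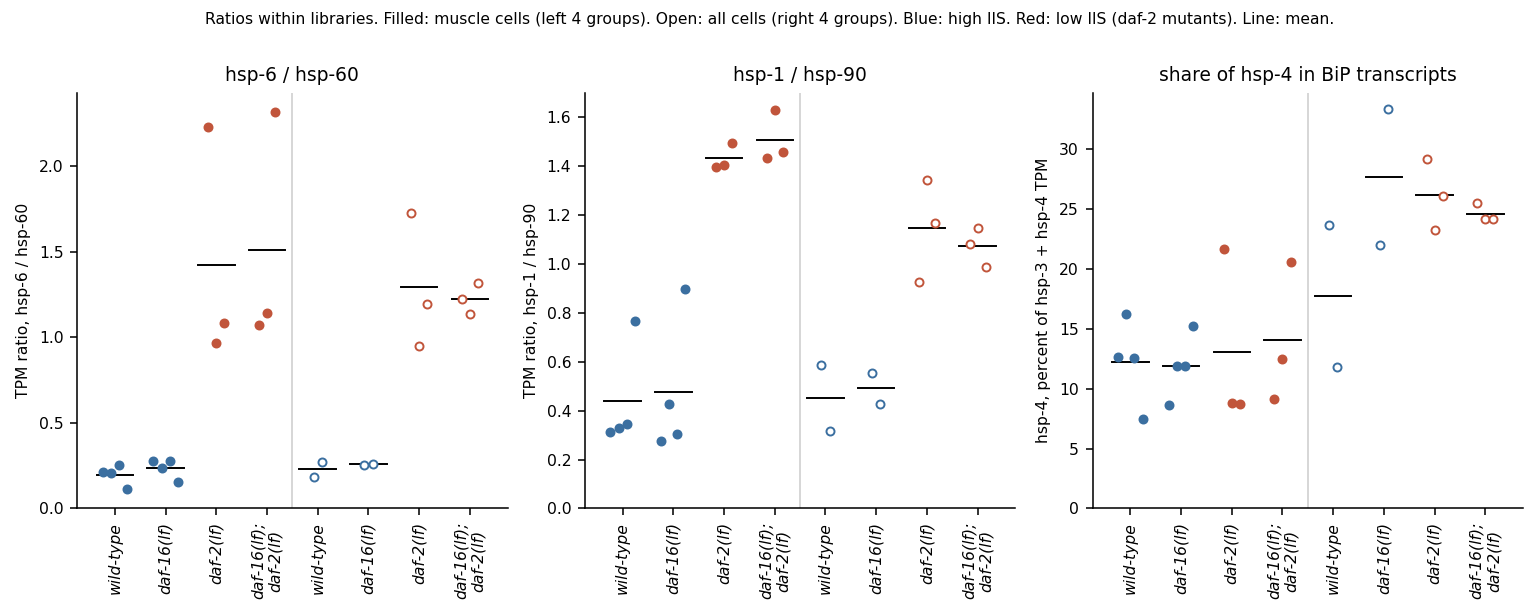
TPM ratio of hsp-6 to hsp-60, TPM ratio of hsp-1 to hsp-90, and percent of the summed hsp-3 and hsp-4 TPM held by hsp-4 (y axes, from 0), in each library (points) by genotype (x axis), with the group mean as a line; filled points are muscle cells, open points all cells, blue is high IIS and red low IIS. The hsp-6 to hsp-60 ratio is at most 0.279 in the high IIS libraries and at least 0.952 in the low IIS libraries, and the hsp-4 share is at most 21.7% in muscle libraries.

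Of 14 other mitochondrial chaperones, proteases, import components and stress regulators, 8 rose with loss of daf-2 in muscle cells with DAF-16, 6 without DAF-16 and 9 in all cells, and 0 fell in each by limma. Of all tested genes, 19.6, 23.5 and 45.2% rose. clpp-1, the matrix protease subunit that acts in the mitochondrial unfolded protein response, rose by 3.06, 2.58 and 2.81. timm-23, of the inner membrane import channel, rose by 1.74, 2.02 and 1.43, and ubl-5, a ubiquitin-like protein of the same response, by 1.74, 1.92 and 1.77. atfs-1, the transcription factor of that response, rose in muscle cells by 1.59 and 0.90. hsp-75, the mitochondrial HSP90 gene, did not pass, with 0.28, -0.27 and 0.23. The list medians were 1.06, 0.65 and 0.99 beside 0.054, 0.33 and 0.86 for all tested genes. In muscle against all cells, 1 of the 14 was higher and 2 lower in daf-2(lf) animals, and 1 higher and 3 lower in double mutants. Of all tested genes, 8.25 and 8.30% were higher and 64.0 and 59.4% lower. The list medians were -0.06 and -0.21, beside -1.26 and -1.09 for all tested genes. Among the lower genes, dve-1, a homeobox regulator of the response, had -3.30 in daf-2(lf) animals and -3.10 in double mutants. In the DAF-16 comparisons 0 of 14 passed with limma.

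The genes whose log2(TPM + 1) was most like each of the 9 over the 24 libraries were found among 4833 genes with a mean of at least 10 TPM. The correlations describe libraries that share preparation, cell makeup and IIS state. hsp-1 was most like the beta-tubulin gene tbb-1 (Pearson r = 0.972), and hsp-110 most like imp-2 (0.954). hsp-90 had the weakest leading match, W03F9.1 at 0.807, followed by pdi-2 at 0.771. Among the inducible genes, hsp-70 was most like W05H7.1 (0.952), and F44E5.4 most like cdr-7 (0.960) and its copy F44E5.5 (0.952). hsp-3 was most like the cyclophilin gene cyn-6 (0.971) and the calreticulin gene crt-1 (0.970), and hsp-4 most like the fatty acid synthase gene fasn-1 (0.979). hsp-6 was most like paa-1 and the mitochondrial ribosomal gene mrpl-46 (0.976 each), and hsp-60 most like mppa-1 (0.925), a subunit of the mitochondrial processing peptidase.

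Within the low IIS groups, a library tended to be high or low for most of the 9 genes together. daf-2(lf) muscle replicate 1 had the lowest TPM of its group for 8 of 9 genes and replicate 2 the highest for 7. Replicate 1 was also the library with F44E5.4 at 0, and 12464 of its genes were above 0, against 16149 in replicate 2 and 15989 in replicate 3, and the part of library quality in these values was not tested. Without it, 4 of the 9 genes passed for loss of daf-2 with DAF-16 in muscle cells and 4 for muscle against all cells in daf-2(lf) animals (3 each with it). The share of all tested genes that passed without replicate 1 is not given here. Double mutant muscle replicate 2 was highest for 8 of 9 genes, daf-2(lf) all cells replicate 1 was lowest for 8 of 9, and double mutant all cells replicate 3 was lowest for all 9. In high IIS muscle cells no library was highest for more than 5 of the 9 genes.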

How the data were processed

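The deposited table holds TPM per transcript for 35749 transcripts in 24 libraries (14 of muscle cells, 10 of all cells), made by the authors with Salmon 1.4.0 on WBcel235, per the submitters' processing notes. The study gives read numbers only as an average and a range over all samples, and TPM keeps no depth, so the depth behind each library is not known here and no counting interval is given. The authors' own tests used estimated counts, which are not analysed here. Transcripts were summed to 21982 genes with the WBcel235 annotation (31176 matched exactly, 4485 by sequence name, 88 unmatched). Groups came from the sample labels. log2(TPM + 1) was fitted with limma 3.58.1 in R 4.3.3, with 1 mean for each of 8 groups and an abundance trend in the moderated variance, over 14717 genes (1 TPM or more in 3 or more libraries), and p-values were adjusted over all of them by the Benjamini-Hochberg method (threshold 0.05). The script was tested on simulated data. Each of 12 comparisons was rerun under other pseudocounts, filters, scalings and variance models, with the replicate number as a block, without each library, without the libraries labelled wild-type all cells, with F44E5.4 and F44E5.5 summed and with gene length held fixed, the last chosen after seeing the data. Libraries with the same replicate number deviated together, with every correlation over 0.1, in DAF-16 in high IIS muscle cells (lowest r = 0.288) and in muscle against all cells of daf-2(lf) (0.166) and of the double mutant (0.206), a hint from the data and not from the labels. The study describes all cells as taken from each sorted sample, but does not say which muscle library each belongs with. The main model did not pair them. The members and gene lists were chosen with earlier results of these data known. Named genes were the 9 members, F44E5.5, up to 4 genes of each list with the largest differences among those called, and leading genes of the 3 most like each member; sti-1, atfs-1, hsp-75 and xbp-1 in muscle cells are named outside that rule, after their values were seen.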

Additional observations from a re-analysis of the deposited data

Results flagged for a closer look

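Among 18 sets of 4 libraries that were tested for a library far from the other 3 (9 genes in wild-type and in daf-16(lf) muscle cells), 3 had such a library, all in daf-16(lf) muscle cells. Chance gives about 1 in 20 for a single set. The sets reuse the same libraries and are not independent, so their count cannot be set against that rate. hsp-1 was 440.3 TPM in replicate 4 against 196 to 225 TPM in the others, and hsp-60 was 365 TPM in the same library against 172 to 205 TPM. hsp-6 was 40.6 TPM in replicate 2 against 55.4 to 56.6 TPM. The effect of daf-2 loss on hsp-70 without DAF-16 differed between muscle cells and all cells by 2.13 on the log2 scale (limma, adjusted p = 0.0266), with -2.53 in muscle cells and -4.66 in all cells.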

How the results depend on the processing

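Of 108 differences (9 genes in 12 comparisons), 24 passed and 14 of these passed under every alternative run, while 56 passed under none. Array weights, whose estimation did not converge, changed several counts of genes that passed: 3 for DAF-16 in low and 1 in high IIS muscle cells, 7 and 8 for daf-2 loss in muscle cells with and without DAF-16, and 2 for each of the differences of the DAF-16 effect between IIS states and of the daf-2 effect between cell types; hsp-4 turned to -0.56 for daf-2 loss with DAF-16. A model of the compared groups alone gave 0 for DAF-16 in low IIS muscle, for muscle against all cells in daf-16(lf) and for the daf-2 effect between cell types. Median-of-ratios scaling gave 5 for muscle against all cells in daf-2(lf), where hsp-1 turned to 1.17 and hsp-60 to 1.30, turned hsp-90 to 0.34 and hsp-60 to 1.07 in double mutants, and gave 0 in daf-16(lf), as did quantile normalization and no filter (0 each). The daf-2 effect between cell types gave 2 with quantile normalization and 2 without the libraries labelled wild-type all cells. Where numbers did not pair the samples, the replicate block gave 5 for daf-2 loss with DAF-16 in muscle, passed hsp-1 without DAF-16 at 1.05 (adjusted p = 0.0042) and gave 2 for the daf-2 effect between cell types; where they did, it changed no call other than hsp-110 in double mutants. In all, 39 of the 108 differences passed with array weights. The shares of all tested genes that passed under each alternative, here and with a replicate left out below, are not given. These counts therefore do not set the 9 genes apart from other genes. The causes were not tested.

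Leaving out a replicate gave 0 to 1 genes for DAF-16 in low IIS muscle and for muscle against all cells in daf-16(lf), 3 to 5 for daf-2 loss with DAF-16 in muscle and for muscle against all cells in daf-2(lf) (5 without daf-2(lf) muscle replicate 2 in each), and 0 to 2 for the daf-2 effect between cell types. With gene length held fixed, 23 of the 24 calls were kept. With 2 to 4 libraries a group, small differences may have been missed.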
